A study of Mustela putorius furo and Mus musculus with 4 samples.

Results

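The genes described here are the 3 D cyclins, *Ccnd1*, *Ccnd2* and *Ccnd3*, and their 2 partner kinases, *Cdk4* and *Cdk6*. They were taken by symbol and are 5 of the 17170 genes in the mouse table and, in upper case, 5 of the 22008 genes in the ferret table. *Ccnd1* and *Cdk6* are also among the genes that the study itself picked out from these libraries. The mouse data are 2 single-cell libraries of E18 CD1 cortex, made with the 10× Genomics droplet method from cells sorted after CellTrace Yellow, a dye injected into the lateral ventricle at E17 that marks cells lining the ventricle. One library is *hGFAP-Cre*;*Smo* F/F (*Smo*-cKO), in which a Cre driven by a human *GFAP* promoter deletes *Smo*, the transducer of Hedgehog signaling, in radial glial (RG) cells and what they produce. The other is a littermate control, named *Smo* F/F in the study's methods and wild type in the sample labels. The ferret data are cortical cells of 1 embryo at E39, labelled as 2 samples, whose barcodes fall into 2 sets that cannot be tied to those samples.

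D cyclins are the regulatory subunits of CDK4 and CDK6. The paired enzyme phosphorylates the retinoblastoma protein RB in G1, which frees E2F factors to transcribe the genes of DNA replication. Inhibitors of the INK4 family bind the kinases alone and those of the CIP/KIP family bind the assembled complexes. In the developing cortex *Ccnd1* is a known target of mitogens including Sonic hedgehog, *Ccnd2* is known from neuron-producing progenitors, and CDK6 is known for its part in progenitor expansion.

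In the GRCm38 annotation *Ccnd1* lies on the minus strand at chr7:144929931-144939925, *Ccnd2* on the minus strand at chr6:127125162-127152193 and *Ccnd3* on the plus strand at chr17:47505051-47599691. *Cdk4* is on the plus strand at chr10:127063534-127067920 and *Cdk6* on the plus strand at chr5:3341485-3531008. The family is shown at the sites through which its members act, read from the coding exons of the GENCODE M21 transcripts. Each D cyclin opens with a short motif named LxCxE, by which it binds the pocket of RB, and its codons are in capitals below, within the first coding bases from the start codon (chr7:144939655-144939693, chr6:127150741-127150773 and chr17:47593655-47593687).
Ccnd1: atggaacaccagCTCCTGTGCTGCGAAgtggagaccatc
Ccnd2: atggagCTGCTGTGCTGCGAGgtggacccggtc
Ccnd3: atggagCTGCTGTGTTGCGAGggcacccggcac
The motif codons of *Ccnd1* and *Ccnd2* shared 13 of 15 bases, those of *Ccnd1* and *Ccnd3* 12 and those of *Ccnd2* and *Ccnd3* 14. For the kinases the capitals mark the codons of the helix that contacts the cyclin (chr10:127064371-127064415 and chr5:3344517-3344561).
Cdk4: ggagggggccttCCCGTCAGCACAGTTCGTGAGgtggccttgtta
Cdk6: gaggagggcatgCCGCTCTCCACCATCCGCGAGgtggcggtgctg
Here *Cdk4* and *Cdk6* shared 13 of 21 bases.

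After the cell filter 10498 of 10524 control and 7209 of 7596 *Smo*-cKO barcodes were left, with medians of 4033.5 and 4836 unique molecular identifiers (UMIs, each standing for 1 captured transcript) per cell. The control library is the one with the larger number of barcodes, which equals the cell number the study gives for control. If that assignment were wrong, every direction between genotypes below would turn round. The libraries share 28 of their cell barcodes, and the ferret sets share 38. There was 1 library per genotype, so no test between genotypes was possible, a difference between libraries cannot be told apart from one between embryos or preparations, and every interval below is a 95% interval that covers counting error only. A level is given as CPM, the UMIs of a gene scaled to a total of 1000000 UMIs over all genes, summed over the cells of a class in 1 library.

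The account follows 5 cell classes, named from clusters that were made without the 5 genes. RG-like cells (1299 control and 1107 *Smo*-cKO cells) carried RG markers and no cycling markers. Cycling RG-like cells (1178 and 563) carried RG markers with markers of S phase, G2/M or both. Cycling glial progenitor-like cells (1385 and 322) come from 2 clusters, 1 led by *Olig1*, *Olig2* and *Egfr* and a larger one (809 control and 181 *Smo*-cKO cells) led by histone and mitotic genes, with 4 glial markers but none among its 10 leading genes. The class is named by that rule and is mixed: an *Olig2* UMI was seen in 450 of 1385 control and 108 of 322 *Smo*-cKO cells. *Eomes*, a marker of intermediate progenitors, was common in it too. Among its cells with fewer than 5 *Ccnd1* UMIs, *Eomes* had a UMI in 683 of 1344 control and 119 of 288 *Smo*-cKO cells. IPC-like cells (943 and 699, 1 cluster) carried markers of intermediate progenitor cells of pyramidal neurons (PyNs), and PyN-like cells (3731 and 3121) carried markers of the neurons themselves. Each class was deeper in *Smo*-cKO, for example with a median of 6828 UMIs per RG-like cell against 4511 in control. *Smo* checked the labels and the reach of the Cre: its level was 16.1 CPM (103 UMIs) in control and 0.375 CPM (3 UMIs) in *Smo*-cKO RG-like cells, and 7.57 and 0.607 CPM in cycling glial progenitor-like cells. In interneuron-like cells, which arise outside the cortex, it rested on 4 control UMIs and 1 *Smo*-cKO UMI.

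The 5 genes did not move as a unit between the libraries. *Cdk6* was lower in *Smo*-cKO in all 5 classes, *Ccnd1* was lower in RG-like, cycling RG-like and IPC-like cells but higher in cycling glial progenitor-like cells, *Ccnd2* was higher in the RG-like and glial classes and lower in IPC-like and PyN-like cells, *Ccnd3* had ratios above 1 in every class, with an interval that includes 1 in PyN-like cells, and *Cdk4* had ratios between 0.930 and 1.00. Counted at 1.5-fold or more, 2 of the 5 genes were lower in RG-like cells, where 4.90% of 10464 genes were lower and 5.96% were higher. In cycling RG-like cells 2 were lower, against 7.29% of all genes lower and 4.70% higher. In cycling glial progenitor-like cells 1 was lower and 2 were higher, against 5.48% and 6.27% of all genes. In IPC-like cells 2 were lower (2.35% of all genes were lower and 6.41% higher), and in PyN-like cells 2 were lower (1.87% lower and 3.98% higher).

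**Figure D1:**
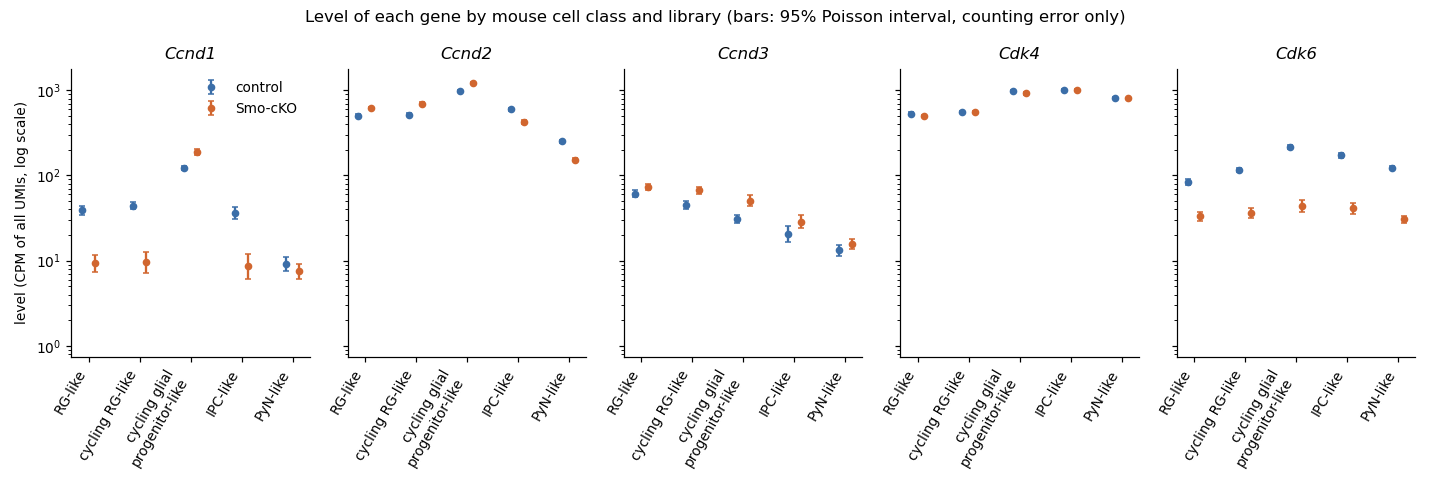
Level (CPM of all UMIs, log axis) of each gene in the 5 mouse cell classes, control in blue and *Smo*-cKO in orange, with 95% Poisson bars that cover counting error only. *Cdk6* lies lower in *Smo*-cKO in all 5 classes, *Ccnd1* in RG-like, cycling RG-like and IPC-like cells, and the points of *Cdk4* nearly coincide.

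*Ccnd1*, a known target of mitogens, stood at 39.2 CPM (34.5 to 44.4) in control RG-like cells and 9.39 CPM (7.38 to 11.8) in *Smo*-cKO RG-like cells, a ratio of 0.239 (0.183 to 0.311). Cycling RG-like cells had 44.4 CPM (39.9 to 49.2) in control and 9.56 CPM (7.14 to 12.5) in *Smo*-cKO, a ratio of 0.215 (0.158 to 0.289). In IPC-like cells the levels were 36.2 and 8.59 CPM and the ratio was 0.237 (0.161 to 0.341). Thus the control levels of these 3 classes were close to each other and so were the *Smo*-cKO levels. The RG-like class pools 2 clusters, with *Ccnd1* ratios of 0.155 (0.104 to 0.224) in that led by *Aldoc* and *Fabp7* and 0.398 (0.268 to 0.580) in that led by 1500015O10Rik and *Gfap*. An *Eomes*-led cluster (1085 and 560 cells) that carried too few markers to be named is not in the IPC-like class, and had 14.9 and 8.53 CPM of *Ccnd1*, a ratio of 0.574 (0.345 to 0.924).

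The *Smo*-cKO level of *Ccnd1* in RG-like cells was near that in neurons. PyN-like cells held 9.17 CPM (7.62 to 10.9) in control and 7.52 CPM (6.11 to 9.15) in *Smo*-cKO, a ratio of 0.820 (0.623 to 1.08) that includes 1. Within *Smo*-cKO the PyN-like level was 0.801 (0.587 to 1.10) times the RG-like level, whereas within control it was 0.234 (0.187 to 0.291) times. Interneuron-like cells, which should hold little *Ccnd1*, had a UMI in 2.35% of control cells (4 of 170, median 3249 UMIs) and 1.37% of *Smo*-cKO cells (4 of 293, median 3021). With every cell thinned to 2900 UMIs, the expected share of RG-like cells with a *Ccnd1* UMI was 9.49% in control and 2.47% in *Smo*-cKO, against 1.82% and 1.86% of interneuron-like cells and 2.70% and 2.12% of PyN-like cells. The thinned share in *Smo*-cKO RG-like cells was therefore little above that in interneuron-like cells of either library. By CPM interneuron-like cells had 5.92 (1.61 to 15.2) in control and 4.27 (1.16 to 10.9) in *Smo*-cKO. With 4 *Ccnd1* UMIs in each library these values cannot show whether *Smo*-cKO RG-like cells were at a floor. The part of free RNA in these shares was not tested. When single cells were picked by their own markers instead of by cluster, the ratio rose to 0.757 in cycling RG-like cells and to 0.404 in IPC-like cells. The cells picked in this way as cycling RG-like numbered 2099 and 1033, and most cells of the glial class were no longer counted apart, since only 79 control and 15 *Smo*-cKO cells were picked as cycling glial progenitor-like.

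Cycling glial progenitor-like cells went the other way. *Ccnd1* was at 122 CPM (115 to 129) in control, 3.10 times (2.70 to 3.57) the RG-like level, and at 187 CPM (173 to 202) in *Smo*-cKO, 19.9 times (15.7 to 25.7) the RG-like level of that library. The *Smo*-cKO to control ratio was 1.54 (1.39 to 1.70), and it was above 1 in both clusters of the class. Yet the share of cells with a *Ccnd1* UMI was 36.4% (504 of 1385) in control and 36.3% (117 of 322) in *Smo*-cKO. With every cell thinned to 2900 UMIs the expected shares were 23.0% and 21.7%. A cell with a *Ccnd1* UMI held 2.23 of them on average in control and 5.26 in *Smo*-cKO, a number that also moves with depth, and the median depth of the class was 6061 UMIs in control and 9607.5 in *Smo*-cKO.

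A small set of *Smo*-cKO cells held most of this *Ccnd1*. Cells with at least 5 *Ccnd1* UMIs made up 2.96% of the class in control (41 cells) and 10.6% in *Smo*-cKO (34 cells), and they held 25.4% and 70.3% of its *Ccnd1* UMIs. *Olig2*, a factor of oligodendrocyte-lineage progenitors, had a UMI in 94.1% of those 34 *Smo*-cKO cells and in 26.4% of the other 288, while *Eomes*, a factor of IPCs, had one in 11.8% and 41.3%. The 41 control cells went the same way, with an *Olig2* UMI in 70.7% and an *Eomes* UMI in 26.8%. Among the 1344 control cells with fewer than 5 *Ccnd1* UMIs, *Eomes* had a UMI in 50.8% and *Olig2* in 31.3%. *Sox10* and *Pdgfra*, genes of oligodendrocyte progenitors, each had a UMI in only 3 of the 34 *Smo*-cKO cells (8.82%). In the 41 control cells they had one in 3 and 4 cells. *Ptch1*, a direct Hedgehog target, had a UMI in 46.3% of the 41 control cells but in 5.88% (2 of 34, interval 0.720 to 19.7%) of the *Smo*-cKO cells. These *Smo*-cKO cells were deep, with a median of 14289.5 UMIs against 9208 for the rest of the class, and doublets were not removed. Their part in the result was not tested.

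The glial class was also split by an *Olig2* UMI, a split chosen after these values were seen. A UMI is seen more often in deep cells, and 94.1% of the 34 *Smo*-cKO cells high in *Ccnd1* fall on the side with *Olig2*. In cells with an *Olig2* UMI (450 control and 108 *Smo*-cKO) *Ccnd1* was at 187 CPM in control and 367 CPM in *Smo*-cKO, a ratio of 1.97 (1.75 to 2.21). In cells without one (935 and 214) it was at 82.8 and 51.5 CPM, a ratio of 0.622 (0.495 to 0.775). With cells picked one by one by their markers the ratio for the class was 0.720, over the 79 control and 15 *Smo*-cKO cells that passed.

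*Ccnd2* was at 504 CPM (486 to 521) in control and 621 CPM (604 to 639) in *Smo*-cKO RG-like cells, a ratio of 1.23 (1.18 to 1.29). Cycling RG-like cells had 520 and 700 CPM, a ratio of 1.35 (1.29 to 1.41), and cycling glial progenitor-like cells 990 and 1226 CPM, a ratio of 1.24 (1.19 to 1.28). Within the glial class the ratio was 1.18 (1.11 to 1.24) in cells with an *Olig2* UMI and 1.25 (1.19 to 1.32) in those without. The direction was the other way in IPC-like and PyN-like cells, which carried no cycling markers. Dividing IPCs had no mouse class of their own. In IPC-like cells *Ccnd2* was at 602 CPM in control and 423 CPM in *Smo*-cKO, a ratio of 0.703 (0.662 to 0.747), and in PyN-like cells at 252 and 153 CPM, a ratio of 0.607 (0.574 to 0.642).

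Levels of *Ccnd2* therefore fell more steeply from RG-like to PyN-like cells in *Smo*-cKO. The PyN-like level was 0.50 times (0.477 to 0.525) the RG-like level in control and 0.246 times (0.234 to 0.259) in *Smo*-cKO. From RG-like to IPC-like cells it was 1.20 times (1.13 to 1.26) as high in control and 0.681 times (0.645 to 0.719) in *Smo*-cKO. Microglia-like cells, which are not of this lineage, held 41.3 CPM in control and 46.9 CPM in *Smo*-cKO, well below every neural class. In interneuron-like cells *Ccnd2* was at 237 CPM (202 to 277) in control and 119 CPM (97.5 to 143) in *Smo*-cKO, so its lower level was shared by neurons from outside the cortex. When cells were picked one by one, the ratio in cycling glial progenitor-like cells was 0.718.

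*Ccnd3*, the remaining D cyclin, was low throughout and higher in *Smo*-cKO. RG-like cells had 61.4 CPM (55.4 to 67.7) in control and 74.1 CPM (68.2 to 80.3) in *Smo*-cKO, a ratio of 1.21 (1.06 to 1.38). The ratio was 1.49 (1.29 to 1.73) in cycling RG-like cells, from 44.8 to 66.8 CPM, and 1.64 (1.35 to 1.99) in cycling glial progenitor-like cells, from 30.9 to 50.7 CPM. IPC-like cells had 20.8 and 28.8 CPM, a ratio of 1.38 (1.05 to 1.83), and PyN-like cells 13.2 and 15.7 CPM, a ratio of 1.19 (0.970 to 1.46) that includes 1. Its level fell from RG-like to IPC-like to PyN-like cells in both libraries, with a PyN-like level 0.215 times the RG-like one in control and 0.212 times in *Smo*-cKO. Interneuron-like cells held 10.4 and 10.7 CPM, close to the PyN-like level.

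Among the kinases, *Cdk4* was the gene that differed least. Its level was 533 CPM (515 to 551) in control and 496 CPM (480 to 511) in *Smo*-cKO RG-like cells, a ratio of 0.930 (0.889 to 0.974). The RG-like cluster led by *Aldoc* and *Fabp7* had a ratio of 0.890 (0.830 to 0.955). That led by 1500015O10Rik and *Gfap* had 1.03 (0.967 to 1.09), which includes 1. *Cdk4* was at 557 CPM in both libraries in cycling RG-like cells, with a ratio of 1.00 (0.955 to 1.05). IPC-like cells had 1016 and 1020 CPM, with a ratio of 1.00 (0.963 to 1.05). PyN-like cells had 818 and 806 CPM, a ratio of 0.985 (0.959 to 1.01). The ratio in cycling glial progenitor-like cells was 0.935 (0.897 to 0.974), from 986 to 922 CPM. *Cdk4* stayed high in neurons: the PyN-like level was 1.53 times (1.48 to 1.6) the RG-like one in control and 1.63 times (1.57 to 1.69) in *Smo*-cKO. In interneuron-like cells *Cdk4* was at 545 CPM in control and 458 CPM in *Smo*-cKO, a ratio of 0.841 (0.730 to 0.969). Outside the neural lineage *Cdk4* was also lower in *Smo*-cKO microglia-like cells, at 276 CPM in control and 183 CPM in *Smo*-cKO, a ratio of 0.664 (0.564 to 0.781). That class pools 2 clusters in unequal mix, 1 of 72 control and 76 *Smo*-cKO cells with a ratio of 0.750 (0.624 to 0.901) and 1 of 26 and 100 cells with a ratio of 0.592 (0.407 to 0.872).

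*Cdk6* was lower in *Smo*-cKO in RG-like cells, at 84.0 CPM (77.1 to 91.4) in control and 33.4 CPM (29.5 to 37.7) in *Smo*-cKO, a ratio of 0.398 (0.342 to 0.461). In cycling RG-like cells the levels were 116 and 36.2 CPM and the ratio 0.312 (0.266 to 0.364). Cycling glial progenitor-like cells had the highest control level of the 5 classes, 217 CPM, and 43.7 CPM in *Smo*-cKO, a ratio of 0.202 (0.169 to 0.239). Summed over this class *Cdk6* and *Ccnd1* differed in opposite directions, as they did in its cells with an *Olig2* UMI, where the ratio of *Cdk6* was 0.137 (0.0942 to 0.192). In its cells without one both were lower, with a *Cdk6* ratio of 0.244 (0.199 to 0.296). With cells picked one by one the ratio in this class was 0.0972.

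The lower *Cdk6* reached neurons. IPC-like cells had 172 CPM in control and 41.6 CPM in *Smo*-cKO, a ratio of 0.241 (0.204 to 0.284), and PyN-like cells 124 and 30.5 CPM, a ratio of 0.246 (0.220 to 0.275). Across PyN-like clusters the control level was 175 CPM in the cluster led by *Pcp4*, *Cxcl12* and *Neurod1*, 75.3 CPM in that led by *Plxna4* and *Nrp1*, and 25.3 CPM in that led by *Stmn2* and *Mef2c*. In *Smo*-cKO these 3 clusters had 51.7, 14.2 and 4.16 CPM, so the order among them was kept. Of the 15 clusters with at least 50 *Cdk6* UMIs in both libraries together, 14 had a ratio whose interval lay below 1, and the exception was a microglia-like cluster with 0.787 (0.530 to 1.17).

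*Cdk6* was also lower in cells that arise outside the cortex. Interneuron-like cells had 52 UMIs in 170 control cells, 77.0 CPM (57.5 to 101), and 4 UMIs in 293 *Smo*-cKO cells, 4.27 CPM (1.16 to 10.9), a ratio of 0.0555 (0.0146 to 0.151). In the cluster led by *Maf*, *Lhx6* and *Sst* there were 28 UMIs in 81 control cells and none in 112 *Smo*-cKO cells, so that up to 2.68% of such cells could carry one. Microglia-like cells, whose own *Cdk6* is known, had 65.4 CPM in control and 43.0 CPM in *Smo*-cKO, a ratio of 0.658 (0.468 to 0.928), which was 0.787 (0.530 to 1.17) in the cluster of even mix and 0.444 (0.217 to 0.939) in that mostly of *Smo*-cKO cells. Vascular-like cells, which hold little, had 23.0 CPM (7 UMIs) and 16.7 CPM (3 UMIs). The *Ptch1* level in interneuron-like cells was 20.7 CPM in control and 29.9 CPM in *Smo*-cKO, a ratio of 1.44 (0.734 to 2.96) that includes 1. The source of the lower *Cdk6* in these cells was not tested, and genotype and library cannot be told apart.

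**Figure D2:**
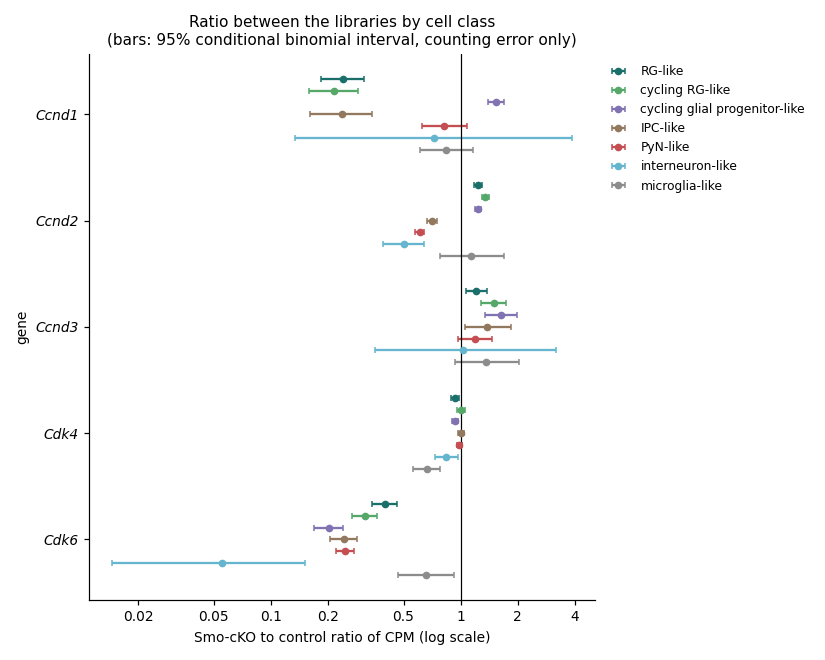
*Smo*-cKO to control ratio of CPM (log axis) for each gene in 7 mouse cell classes, with 95% conditional binomial bars for counting error only and a vertical line at 1. The *Cdk6* ratios lie between 0.0555 and 0.658, and *Ccnd1* spans both sides of the line.

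In RG-like cells the chromosomal neighbours of *Cdk6* and *Ccnd1* differed less between the libraries than those genes. In PyN-like cells this held for the neighbours of *Cdk6* but not for all those of *Ccnd1*. Of protein-coding genes within 500 kb of *Cdk6* that had at least 50 UMIs, 8 were measured in PyN-like cells, with *Smo*-cKO to control ratios of 0.853 to 1.11, and 8 in RG-like cells, with ratios of 0.772 to 1.07. *Fam133b*, 12.8 kb away, had a ratio of 1.10 in PyN-like cells. In RG-like cells 3 of the 8 had an interval below 1, as *Cdk6* did, with ratios of 0.858 (0.792 to 0.930) for *Fam133b*, 0.842 (0.760 to 0.933) for *Gatad1* and 0.772 (0.601 to 0.990) for *Mterf1a*. The 3 measured neighbours of *Ccnd1* had ratios of 0.710 to 1.05 in RG-like cells, the lowest that of *Ppfia1*, 0.710 (0.561 to 0.897). In PyN-like cells their ratios were 0.969 to 1.45, the highest that of *Fadd*, 1.45 (1.05 to 2.01). *Ccnd1* itself had a ratio of 0.820 there. None of these neighbours of *Cdk6* or *Ccnd1* was 1.5-fold lower or higher in either class.

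Summed over the family, D cyclin UMIs rested mainly on *Ccnd2*. Because UMIs are read from 1 end of each transcript, the length of a gene does not enter the count. Whether the genes were captured alike was not tested, so the shares here are of UMIs. In RG-like cells *Ccnd2* was 83.4% of D cyclin UMIs in control and 88.2% in *Smo*-cKO, while *Ccnd1* was 6.49% (5.73 to 7.31) and 1.33% (1.05 to 1.67). In cycling RG-like cells the *Ccnd1* share was 7.29% in control and 1.23% in *Smo*-cKO, and in IPC-like cells 5.49% and 1.86%. Of the 5 classes, in cycling glial progenitor-like and PyN-like cells alone was the *Ccnd1* share not lower in *Smo*-cKO, at 10.6% and 12.8% in the former and 3.34% and 4.27% in the latter. *Ccnd3* was a larger share in *Smo*-cKO PyN-like cells, from 4.81% (4.14 to 5.55) to 8.92% (7.79 to 10.2).

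**Figure D3:**
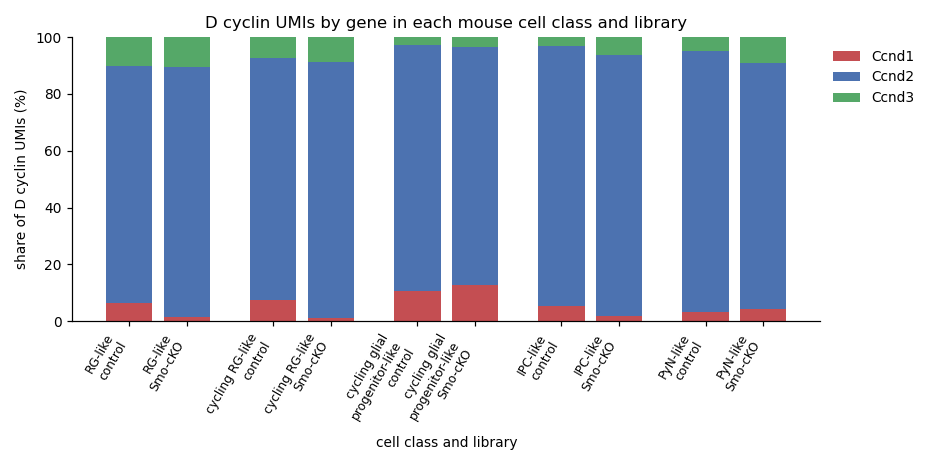
Share of D cyclin UMIs (%, stacked to 100) from *Ccnd1*, *Ccnd2* and *Ccnd3* in the 5 mouse cell classes, control on the left and *Smo*-cKO on the right of each pair. *Ccnd2* takes most of every bar, and the *Ccnd1* band falls from 6.49% to 1.33% in RG-like cells.

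The summed level of the 3 D cyclins followed *Ccnd2* rather than *Ccnd1*. It was 604 CPM in control and 705 CPM in *Smo*-cKO RG-like cells, a ratio of 1.17 (1.12 to 1.22), and 609 and 777 CPM in cycling RG-like cells, a ratio of 1.28 (1.22 to 1.33). IPC-like cells had 659 and 461 CPM, a ratio of 0.699 (0.660 to 0.741), and PyN-like cells 274 and 176 CPM, a ratio of 0.642 (0.609 to 0.677). For the kinases, *Cdk6* was 13.6% of the summed *Cdk4* and *Cdk6* UMIs in control and 6.32% in *Smo*-cKO RG-like cells, and 18.0% and 4.53% in cycling glial progenitor-like cells. The summed kinase level differed less, with ratios of 0.858 (0.821 to 0.896) in RG-like, 0.803 (0.771 to 0.835) in cycling glial progenitor-like and 0.888 (0.866 to 0.911) in PyN-like cells.

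RG-like clusters could be ordered by the cycling markers they carried. In control *Ccnd1* was at 39.2 CPM in RG-like cells without cycling markers, 69.1 CPM (56.8 to 83.3) in the cluster with S phase markers alone, 46.9 CPM (39.5 to 55.3) in that with S and G2/M markers and 30.8 CPM (25.2 to 37.2) in that with G2/M markers alone. All 5 genes were higher in the S phase than in the G2/M cluster in control, by 2.24 times (1.70 to 2.96) for *Ccnd1*, 1.44 (1.33 to 1.56) for *Ccnd2*, 1.66 (1.26 to 2.19) for *Ccnd3*, 1.48 (1.37 to 1.6) for *Cdk4* and 1.40 (1.17 to 1.68) for *Cdk6*. In *Smo*-cKO the same ratio was 1.74 (1.34 to 2.26) for *Ccnd3* and 1.38 (1.26 to 1.51) for *Cdk4*. It was near 1 for *Ccnd2*, at 1.02 (0.935 to 1.10), and for *Cdk6*, at 0.989 (0.628 to 1.54), and was 1.49 (0.693 to 3.17) for *Ccnd1* on 15 and 17 UMIs. The *Smo*-cKO to control ratio of *Ccnd2* was 1.10 (1.00 to 1.20) in the S phase cluster and 1.55 (1.44 to 1.66) in the G2/M cluster, so its higher level in *Smo*-cKO was larger in the latter. That of *Cdk6* was 0.199 (0.134 to 0.287) in the S phase cluster and between 0.282 and 0.408 in the other 3 states.

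**Figure D4:**
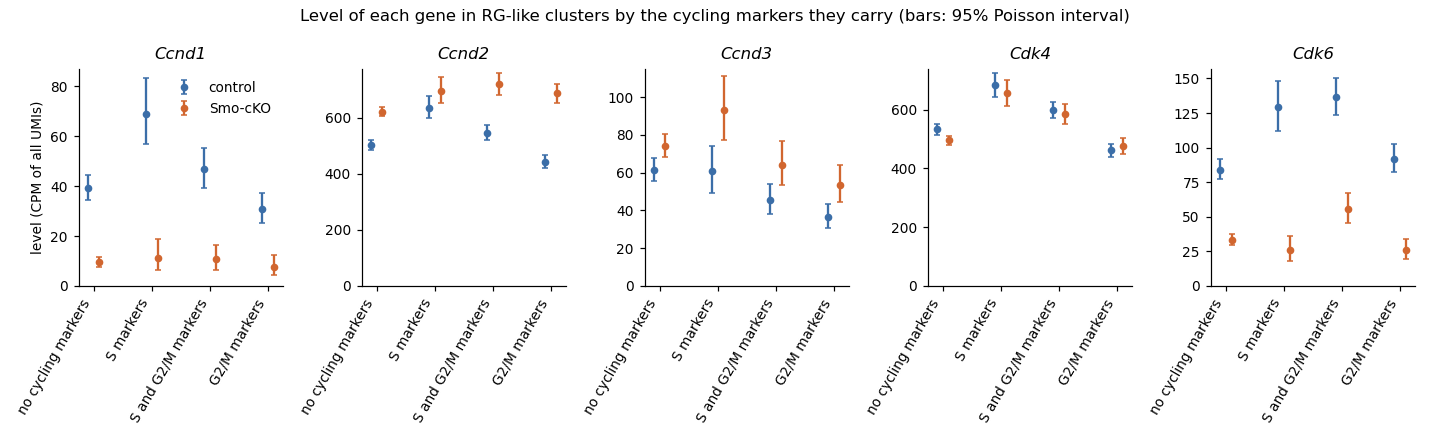
Level (CPM of all UMIs, linear axis from 0) of each gene in RG-like clusters by the cycling markers they carry, control in blue and *Smo*-cKO in orange, with 95% Poisson bars. Control *Ccnd1* is highest with S phase markers, at 69.1 CPM, and the *Smo*-cKO points lie between 7.62 and 11.4 CPM.

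Detection together was counted in single cells thinned to 2900 UMIs. In control RG-like cells *Ccnd2* had a UMI in 78.3% of 120 cells with *Ccnd1* and in 66.5% of those without, and *Cdk6* in 18.3% and 20.8%. In the neuronal lineage of control *Cdk6* was seen more often in cells with a *Ccnd2* UMI than in those without. There it had a UMI in 37.7% of IPC-like cells with *Ccnd2* and 22.5% of those without, and in 34.4% and 21.1% of PyN-like cells. In *Smo*-cKO these shares were 9.0% and 9.15% in IPC-like cells and 10.4% and 6.33% in PyN-like cells. The PyN-like class pools clusters in which control *Ccnd2* was at 324, 329, 183 and 89.8 CPM. *Cdk6* was at 175, 149, 75.3 and 25.3 CPM in the same clusters. The part of this mix in the PyN-like shares was not tested.

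The genes around the enzyme were taken from a list of 41, of which 33 had at least 50 UMIs in RG-like cells of both libraries together. Of these, 5 were at least 1.5-fold lower and 2 at least 1.5-fold higher in *Smo*-cKO, beside 4.90% of all genes lower and 5.96% higher, and the list's median log2 ratio was -0.07, against 0.01 over all genes. The 5 include *Smo*, the deleted gene, and its target *Ptch1*. The 2 that were higher are CIP/KIP inhibitors: *Cdkn1a*, which encodes p21, went from 13.9 to 112 CPM, a ratio of 8.08 (6.49 to 10.2), and *Cdkn1c*, which encodes p57, from 5.15 to 11.9 CPM, a ratio of 2.31 (1.54 to 3.54). *Cdkn1b*, which encodes p27, had a ratio of 0.955 (0.877 to 1.04) that includes 1. In microglia-like cells, with the unequal cluster mix given above, *Cdkn1a* was at 114 and 293 CPM, a ratio of 2.57 (2.10 to 3.18), where 13.1% of all genes were 1.5-fold higher and 13.2% lower. The study itself picked out *Cdkn1a* from these libraries.

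Among the genes upstream, *Mycn*, a Myc factor of progenitors, was at 68.4 and 44.3 CPM in RG-like cells, a ratio of 0.648 (0.562 to 0.747). *Ptch1* was at 18.9 and 1.75 CPM, a ratio of 0.0927 (0.0492 to 0.162). Downstream, *E2f3* was at 16.7 and 11 CPM, a ratio of 0.659 (0.491 to 0.882), while *Ccne2*, the cyclin of the next step, had a ratio of 0.595 (0.331 to 1.05) whose interval includes 1. None of the 3 retinoblastoma family genes was 1.5-fold lower or higher there. *Rb1* had a ratio of 0.992 (0.839 to 1.17) and *Rbl1* of 0.864 (0.580 to 1.29), while *Rbl2* had 1.40 (1.05 to 1.87), an interval above 1.

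Of the 5 inhibitors measured in each of the 5 classes none was 1.5-fold lower, and 1 or 2 were higher. Across these 5 classes 3.98% to 6.41% of all genes were 1.5-fold higher and 1.87% to 7.29% were lower. *Cdkn1a* was higher in all 5, with ratios of 2.20 (1.72 to 2.82) in cycling RG-like, 5.33 (4.2 to 6.79) in cycling glial progenitor-like, 8.94 (5.40 to 15.8) in IPC-like and 2.82 (1.59 to 5.23) in PyN-like cells beside that given for RG-like cells. In IPC-like cells *Cdkn1c* went from 58.4 to 243 CPM, a ratio of 4.17 (3.63 to 4.79), and *Mycn* from 54.3 to 16.5 CPM, a ratio of 0.304 (0.230 to 0.397). *Rb1* was higher there, with a ratio of 1.57 (1.30 to 1.90). In PyN-like cells *Cdkn1c* had a ratio of 2.21 (2.06 to 2.37), from 90.4 to 200 CPM. In cycling glial progenitor-like cells, where *Ccnd1* was higher, *Myc* was also higher, at 7.13 CPM in control and 25.8 CPM in *Smo*-cKO, a ratio of 3.62 (2.59 to 5.07), while *Mycn* was lower, with a ratio of 0.668 (0.550 to 0.806).

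Over 14 points (7 mouse classes in each of 2 libraries) and 5318 genes, the pattern most like that of *Cdk4* was that of *Cdk2ap1* (Pearson r = 0.98 of log2(CPM + 1)), that of *Ccnd2* was matched by *Atp5h* (0.96), that of *Ccnd3* by *Mt1* (0.98), that of *Ccnd1* by *Rps15* (0.90) and that of *Cdk6* by *Naa10* (0.86). The points share 2 libraries and their depth, so these are descriptions. *Cdk6* had the weakest best match of the 5, with no other gene above 0.79.

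In the ferret the 5 genes were measured in 10185 cells of set 1 and 13052 of set 2, with medians of 2556 and 3563 UMIs. Many of these cells lay in clusters with too few markers to be named, among them clusters of 2995, 2230 and 2147 cells. Such cells are outside every class, and the PyN-like class held 4687 of 23237 cells. RG-like cells of the ferret fell into 2 clusters that both carried cycling markers, 1 with S phase markers alone and 1 with S and G2/M markers. Cycling and non-cycling RG cells could therefore not be separated. *CCND2* was at 201 CPM (183 to 219) in set 1 and 223 CPM (208 to 239) in set 2 in cycling RG-like cells, at 80.2 and 84.0 CPM in IPC-like cells and at 18.5 and 9.28 CPM in PyN-like cells. The fall to PyN-like cells, to 0.0921 times (0.0731 to 0.115) and 0.0416 times (0.0338 to 0.0508) the RG-like level, was steep in both sets.

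*CDK6* was spread differently. Its level was 127 CPM (113 to 142) and 201 CPM (187 to 216) in cycling RG-like cells, 134 and 217 CPM in IPC-like cells, 204 and 381 CPM in cycling IPC-like cells and 17.9 and 27.5 CPM in PyN-like cells. Non-cycling IPC-like cells had ratios to cycling RG-like cells of 1.05 (0.890 to 1.24) and 1.08 (0.972 to 1.20), whose intervals include 1, and cycling IPC-like cells held more, with ratios of 1.6 (1.38 to 1.87) and 1.90 (1.73 to 2.08). Interneuron-like cells had no *CDK6* UMI in 187 cells of set 1, which allows a share of up to 1.6%, and 5.67 CPM in set 2.

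*CCND1* was low and highest in cycling IPC-like cells among the 4 neural classes, at 35.6 CPM (27.4 to 45.5) in set 1 and 57.4 CPM (49.3 to 66.5) in set 2. Cycling RG-like cells had 10.3 and 31.3 CPM, so the sets differed there by more than their counting error. A small unnamed cluster led by *PDGFRA*, *BCAN* and *OLIG1*, genes of oligodendrocyte progenitors, held 143 and 329 CPM of *CCND1*. *CCND3* was between 6.98 and 20.5 CPM in the 4 neural classes and in both sets. *CDK4* was at 218 and 354 CPM in cycling RG-like cells, 283 and 442 CPM in cycling IPC-like cells and 110 and 119 CPM in PyN-like cells, so that PyN-like cells held 0.506 times (0.449 to 0.571) and 0.338 times (0.313 to 0.364) the RG-like level. In the mouse control library, by contrast, the PyN-like level of *Cdk4* was above the RG-like one. Ages, species and classes differ between these data, and that difference was not tested.

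**Figure D5:**
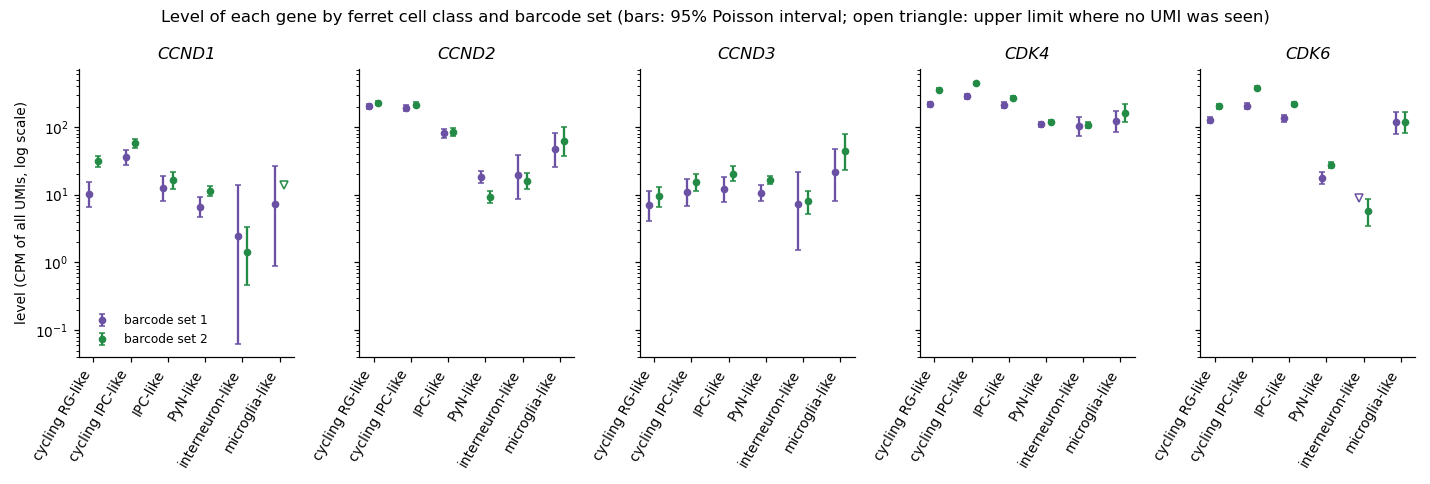
Level (CPM of all UMIs, log axis) of each gene in 6 ferret cell classes, barcode set 1 in purple and set 2 in green, with 95% Poisson bars and open triangles at the upper limit where no UMI was seen. *CCND2* and *CDK6* lie lower in PyN-like cells than in the 3 progenitor classes in both sets.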

How the data were processed

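Cell Ranger made the tables, per the labels, and the authors deposited 1 mouse and 1 ferret table of raw counts, in which each entry is the number of UMIs of a gene in a cell. The annotation used is not given in the sources used here. No column of per-sample values was left unused. Cells with 750 to 5000 genes and less than 10% mitochondrial UMIs were kept, the limits of the study's methods. Counts were log-normalized, joined by anchors (2000 variable genes without the 5 genes and the listed pathway genes, 30 dimensions) and clustered at resolution 0.8 in Seurat 5.3.0 under R 4.3.3. The submitters' notes name Seurat 3.0. Clusters were named from marker lists, and those that met no rule stayed unnamed. No doublet caller was run. The members, lists and classes were chosen with earlier results of these data known, and naming thresholds after leading genes had been seen.

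Levels were summed UMIs scaled to CPM with exact Poisson intervals, shares had exact Clopper-Pearson intervals, and ratios had exact conditional binomial intervals (python 3.11.15, scipy 1.17.1, numpy 2.4.6, pandas 2.3.3). The ratios with their intervals and the expected shares at a fixed depth were tested on simulated data, the other intervals were not. Libraries held 51657121 (control), 42057782 (*Smo*-cKO), 30548876 and 56090792 (ferret sets) UMIs after the filter. Where no cell had a UMI, 3 cells divided by the number counted is printed as the upper limit. Shares at a fixed depth are expectations after thinning each cell to 2900 UMIs. Named pathway genes were at most 10, those at least 1.5-fold apart in RG-like cells with at least 50 UMIs, and the 5 genes of most similar pattern were sought for each member. Genes named beyond this rule (*Olig2*, *Eomes*, *Sox10*, *Pdgfra*, *Myc*, *Rb1*, *Rbl1*, *Rbl2*, *Cdkn1b*, *Fam133b*, *Gatad1*, *Mterf1a*, *Ppfia1*, *Fadd*), the *Olig2* split, the neighbours and the cells with at least 5 *Ccnd1* UMIs were chosen after values were seen. The alternatives tried were no integration, a resolution of 0.4 or 1.6, clustering with the 5 genes kept, cells picked by their own markers, a stricter cell filter (1000 genes, 5% mitochondrial), CPM without ribosomal protein and mitochondrial genes, a mean over cells, thinning and at least 2 UMIs.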

Additional observations from a re-analysis of the deposited data

Results flagged for a closer look

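*Ccnd1* and *Ccnd2* differed between the libraries in opposite directions in different cell classes, with intervals on either side of 1. The difference between classes was not itself tested, since there was 1 library per genotype. The intervals cover counting error and take no account of spread between cells. For *Ccnd1* the *Smo*-cKO to control ratio was 0.239 in RG-like, 0.215 in cycling RG-like and 0.237 in IPC-like cells, against 1.54 in cycling glial progenitor-like cells. In that last class 34 of 322 *Smo*-cKO cells held 70.3% of the *Ccnd1* UMIs. Its cells without an *Olig2* UMI had a *Ccnd1* ratio of 0.622, and cells picked one by one gave 0.720. For *Ccnd2* it was 0.703 in IPC-like and 0.607 in PyN-like cells, against 1.23 in RG-like, 1.35 in cycling RG-like and 1.24 in cycling glial progenitor-like cells.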

How the results depend on the processing

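Of 200 recomputed ratios between the libraries (25 ratios under 8 alternatives), 177 stayed within the interval of the reported value, 11 moved higher and 12 lower. The 25 ratios that kept the 5 genes in the clustering all stayed within it. Picking cells one by one turned the direction in cycling glial progenitor-like cells, to 0.720 for *Ccnd1* and 0.718 for *Ccnd2*, and moved *Ccnd1* to 0.757 in cycling RG-like and 0.404 in IPC-like cells, *Ccnd2* to 1.21 in cycling RG-like and 0.664 in PyN-like cells, and *Cdk6* to 0.264 in cycling RG-like, 0.0972 in cycling glial progenitor-like and 0.276 in PyN-like cells. The cause was not tested. Without integration *Ccnd1* was 0.343 in IPC-like cells, *Ccnd2* 1.48 in cycling RG-like cells and *Cdk6* 0.315 in RG-like cells. Resolution 0.4 gave 1.43 for *Ccnd2* in cycling RG-like cells, 0.875 for *Cdk4* and 0.302 for *Cdk6* in RG-like cells, and resolution 1.6 gave 1.32, 1.18 and 0.755 for *Ccnd2* in RG-like, cycling glial progenitor-like and IPC-like cells. The stricter filter gave 1.31 and 0.762 for *Ccnd2* in RG-like and IPC-like cells. A mean over cells gave 1.19 for *Ccnd1* and 1.16 for *Ccnd2* in cycling glial progenitor-like cells, and leaving out ribosomal protein and mitochondrial genes gave 0.958 for *Cdk4* in IPC-like cells. Of 400 mouse levels 252 stayed within their interval, 88 moved higher and 60 lower, of 95 ferret levels 46, 23 and 26, and 99 of 100 shares moved lower with thinning or a demand for 2 UMIs, as both leave fewer UMIs. No paired analysis was possible because each genotype has 1 library. Low counts limit *Ccnd1* in the *Smo*-cKO RG-like clusters without cycling markers, which rests on 35 and 40 UMIs. They limit *Cdk6* in *Smo*-cKO interneuron-like cells more, as it rests on 4 UMIs.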
